A study of Mus musculus with 6 samples.

Results

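The genes described here are 8 markers of bile duct epithelial cells and of the ductular reaction, the outgrowth of small duct-like cells in cholestatic liver injury. They are Krt19, Krt7, Krt23, Epcam, Sox9, Cftr, Cldn4 and Prom1, taken by symbol from a gene table of 24532 genes, and all 8 were among the 14415 genes with enough counts to be tested. Liver mRNA was sequenced from 6 wild-type C57BL/6 mice, 3 in each of 2 groups. The rhCYGB group received recombinant human cytoglobin at 2 mg/kg by injection, 2 times a week for 2 weeks, on top of a diet with 0.1% DDC (3,5-diethoxycarbonyl-1,4-dihydrocollidine) that lasted 4 weeks. The vehicle group ate the same diet for the same time and received normal saline in place of the protein, so every animal had DDC injury and none was healthy. Livers were taken 2 days after the last injection, and each library came from a separately numbered mouse whose age and sex the sources used here do not give.

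DDC, which blocks heme synthesis, leads to porphyrin plugs in small bile ducts and is widely used to provoke a ductular reaction in mice. Cholangiocytes, the cells that line bile ducts, are held together as a simple epithelium, wear a keratin coat that hepatocytes lack, and modify bile with chloride and water channels. In DDC injury ductular cells expand from the portal tracts, and some hepatocytes near them take on part of the duct programme, Sox9 among the first genes. The comparison asks whether these genes differed between rhCYGB and vehicle livers. These are whole-liver libraries, in which fewer duct cells and less RNA of a gene per cell cannot be told apart.

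Total estimated counts ran from 59739026 to 72431373 in rhCYGB libraries and from 58422095 to 66174274 in vehicle libraries, and the 8 markers took 4173 to 7392 of them with rhCYGB and 7833 to 11903 with vehicle. CPM is the estimated count relative to a library total scaled by TMM, a factor that centres the bulk of genes, and TPM is a share per transcript length and is used only to set levels of different genes side by side. Summed CPM of the 8 markers was 96.3, 121.4 and 110.8 in rhCYGB replicates 1 to 3. In vehicle replicates 1 to 3 it was 140.8, 111.1 and 118.3, so that on this scale the groups overlapped. The TMM factors were 1.18, 0.744 and 0.630 in rhCYGB replicates 1 to 3 and 1.45, 1.07 and 1.18 in vehicle replicates 1 to 3. The scale itself thus differs between libraries, with the lowest factors in rhCYGB replicates 2 and 3 and rhCYGB replicate 1 inside the vehicle range. The libraries also differed in how expression leaned on transcript length. Per doubling of length the deviation of log2 CPM from the 6-library mean was 0.24, -0.35 and -0.33 in rhCYGB replicates 1 to 3 and 0.40, -0.016 and 0.056 in vehicle replicates 1 to 3. The ribosomal RNA gene Rn45s was highest in rhCYGB replicate 3, with 1.74% of its counts, and took 0.225% to 0.443% elsewhere. The part of scale, length and Rn45s in the results below was not tested except where a value without the length trend is given.

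In TPM, Krt19 was the most abundant marker and Cftr the least. Mean levels were 26.7 ± 5.10 TPM in rhCYGB livers and 32.6 ± 5.61 TPM in vehicle livers for Krt19 (SD, n = 3 each, as for all means below). Next came Prom1 at 12.7 ± 9.89 TPM with rhCYGB and 27.5 ± 6.57 TPM with vehicle, then Krt7 at 12.5 ± 0.430 and 17.8 ± 8.91 TPM in the same order of groups, and Epcam at 8.46 ± 5.06 TPM with rhCYGB and 21.7 ± 14.3 TPM with vehicle. Cldn4 stood at 4.52 ± 1.91 TPM with rhCYGB and 9.38 ± 6.35 TPM with vehicle, Sox9 at 2.48 ± 2.29 and 6.42 ± 3.28 TPM, Krt23 at 3.41 ± 0.418 and 5.02 ± 1.33 TPM, and Cftr at 0.287 ± 0.272 and 0.843 ± 0.780 TPM, rhCYGB given before vehicle each time. Neighbours in this order had overlapping TPM values within each group except Krt23 and Cftr, whose values lay apart in both groups.

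By edgeR's quasi-likelihood test none of the 8 markers passed an adjusted p of 0.05 for rhCYGB over vehicle, where 0% of the 14415 genes tested did. At an unadjusted p under 0.05 stood 0 of the 8 markers, against 8.12% of all genes. The 3 keratins had log2 fold changes above 0, as had 46.8% of all genes, and the other 5 markers lay below 0, as did 53.2% of all genes. The median was -0.42 over the 8 markers and -0.056 over all genes tested. For 2 of the 8, Sox9 and Prom1, every rhCYGB library was lower in CPM than every vehicle library, which held for 7.38% of all genes. Separation in the other direction was seen for 0 of the 8 markers and for 6.02% of all genes, and in either direction for 13.4%.

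**Figure D1:**
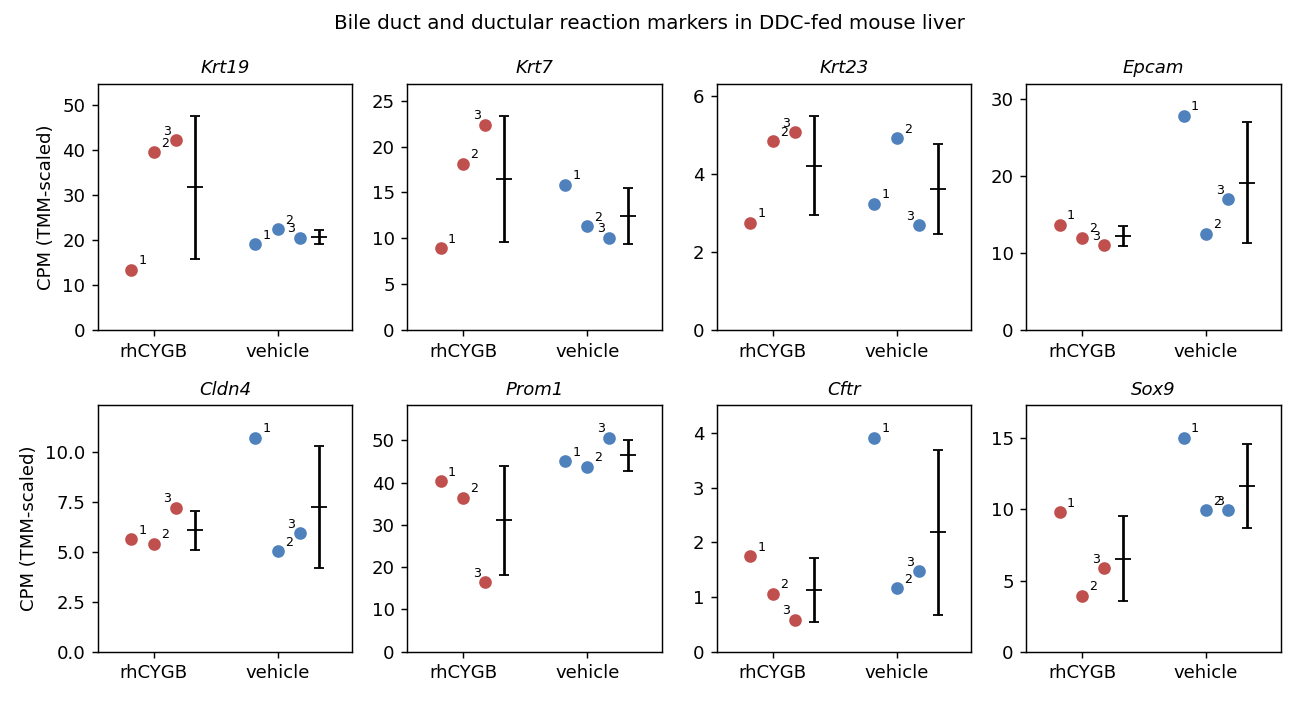
CPM (TMM-scaled, axes from 0) of each marker in rhCYGB livers (red, left) and vehicle livers (blue, right). Points are libraries labelled with their replicate number, and black bars give the mean and SD of 3; Sox9 and Prom1 are the 2 markers whose groups do not overlap, and rhCYGB replicate 1 is the lowest of the 6 libraries for Krt19 and Krt7.

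Keratins are the intermediate filament proteins of epithelia, and the pair Krt7 and Krt19 marks cholangiocytes in adult liver. Krt19 (gene 16669, mm10 chromosome 11, 100140811 to 100145926) was at 13.4, 39.5 and 42.3 CPM in rhCYGB replicates 1 to 3 and at 19.1, 22.4 and 20.5 CPM in vehicle replicates 1 to 3. Replicates 2 and 3 of the rhCYGB group were above every vehicle library and replicate 1 was below every one. The log2 fold change was 0.62 (SE 0.43, 95% interval -0.38 to 1.62, edgeR adjusted p = 0.553).

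Krt7 (chromosome 15, 101412403 to 101427806) was at 8.94, 18.2 and 22.4 CPM with rhCYGB and at 15.9, 11.3 and 10.1 CPM with vehicle. It showed the same split of the rhCYGB group, with replicate 1 below and replicates 2 and 3 above all vehicle livers, and a log2 fold change of 0.41 (SE 0.39, 95% interval -0.49 to 1.31, edgeR adjusted p = 0.618). Krt23 (chromosome 11, 99477973 to 99493110), a keratin known to appear in ductular cells of injured liver, was at 2.75, 4.84 and 5.07 CPM with rhCYGB and at 3.24, 4.92 and 2.69 CPM with vehicle. Its groups overlapped throughout, with a log2 fold change of 0.22 (SE 0.39, edgeR adjusted p = 0.773).

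Epcam and Cldn4 encode surface proteins of the epithelial sheet, Epcam a cell adhesion molecule of duct and progenitor cells and Cldn4 a claudin of tight junctions. Epcam (chromosome 17, 87635979 to 87651127) was at 13.6, 12.0 and 10.996 CPM in rhCYGB replicates 1 to 3, against 27.8, 12.5 and 16.9 CPM in vehicle replicates 1 to 3. Its rhCYGB libraries were close to each other, and vehicle replicate 2 lay among them. The log2 fold change was -0.64 (SE 0.34, 95% interval -1.43 to 0.15, edgeR adjusted p = 0.523). Cldn4 (chromosome 5, 134945124 to 134946934) was at 5.63, 5.42 and 7.22 CPM with rhCYGB and at 10.7, 5.04 and 5.94 CPM with vehicle, where replicate 1 alone was above the rhCYGB range. Its log2 fold change of -0.25 (SE 0.36, edgeR adjusted p = 0.728) was 0.15 without vehicle replicate 1.

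Cftr encodes the apical chloride channel through which cholangiocytes secrete, and Prom1 encodes prominin 1 (CD133), a membrane protein of microvilli and of ductular progenitor cells. Cftr (chromosome 6, 18170687 to 18322769) had 134, 57 and 22 estimated counts in rhCYGB replicates 1 to 3 and 331, 82 and 103 in vehicle replicates 1 to 3, the lowest counts of the 8 genes. In CPM these were 1.75, 1.06 and 0.584 with rhCYGB and 3.92, 1.16 and 1.47 with vehicle, with overlap of the groups and a log2 fold change of -0.94 (SE 0.62, 95% interval -2.40 to 0.52, edgeR adjusted p = 0.546), which was -0.21 without vehicle replicate 1. Prom1 (chromosome 5, 43993622 to 44101736) was at 40.4, 36.5 and 16.4 CPM with rhCYGB and at 45.1, 43.8 and 50.7 CPM with vehicle. All rhCYGB libraries were below all vehicle libraries, replicate 3 by the widest margin, and the log2 fold change was -0.58 (SE 0.36, 95% interval -1.42 to 0.26, edgeR adjusted p = 0.532).

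Sox9, the transcription factor that defines the duct lineage from its origin in the embryonic liver, was the marker with the smallest p. Sox9 (gene 20682, chromosome 11, 112782210 to 112787757) was at 9.83, 3.93 and 5.87 CPM in rhCYGB replicates 1 to 3 and at 15.1, 9.96 and 9.96 CPM in vehicle replicates 1 to 3. The groups did not overlap, but rhCYGB replicate 1 lay just under vehicle replicates 2 and 3. The log2 fold change was -0.83 (SE 0.40, 95% interval -1.77 to 0.10, unadjusted p = 0.0732, edgeR adjusted p = 0.523).

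Calls and sizes depended on single libraries. Without rhCYGB replicate 1, edgeR called 2 of the 8 markers at an adjusted p of 0.05, Krt19 as higher (log2 fold change 0.98, adjusted p = 0.0227) and Sox9 as lower (-1.26, adjusted p = 0.0357), in a fit that called 23.2% of all genes. Krt7 (0.70) and Prom1 (-0.82) then had unadjusted p-values of 0.0344 and 0.0444, as did 42% of all genes under 0.05. Vehicle replicate 1 held the highest CPM of the 6 libraries for Epcam, Cldn4, Cftr and Sox9. Without it the median over the markers was -0.035, and Epcam was at -0.27, Sox9 at -0.61 and Prom1 at -0.61. Without rhCYGB replicate 3 the fold changes were nearer to 0 for Krt19 (0.36), Krt7 (0.13), Krt23 (0.068) and Prom1 (-0.28). Over the 6 fits that each left out 1 library, values ran from 0.36 to 0.98 for Krt19, 0.13 to 0.70 for Krt7, 0.043 to 0.51 for Krt23, -0.87 to -0.27 for Epcam, -0.45 to 0.15 for Cldn4, -0.82 to -0.28 for Prom1, -1.41 to -0.21 for Cftr and -1.26 to -0.57 for Sox9.

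The fold changes ran largely, though not strictly, in the order of transcript length. The 3 keratins have the shortest transcripts of the 8, from 1381 bases for Krt19 to 1586 bases for Krt7, then follow Cldn4 with 1811 and Epcam with 2061 bases, and Prom1 with 3719, Sox9 with 4146 and Cftr with 6304 bases are the longest. Over all genes tested the median log2 fold change was 0.41 in the length class of Krt19, 0.15 in that of Krt7, Krt23 and Cldn4 and -0.31 in that of Sox9. With each library's loess trend on length removed, the median of all genes was 0.11 and the markers spanned a narrower range. Krt19 was then at 0.36, Krt7 at 0.23, Krt23 at 0.074, Prom1 at -0.29, Cldn4 at -0.32, Cftr at -0.46, Sox9 at -0.48 and Epcam at -0.63, so that all 8 kept their sign and Epcam was the value that moved least. None of the 8 passed in that fit either.

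**Figure D2:**
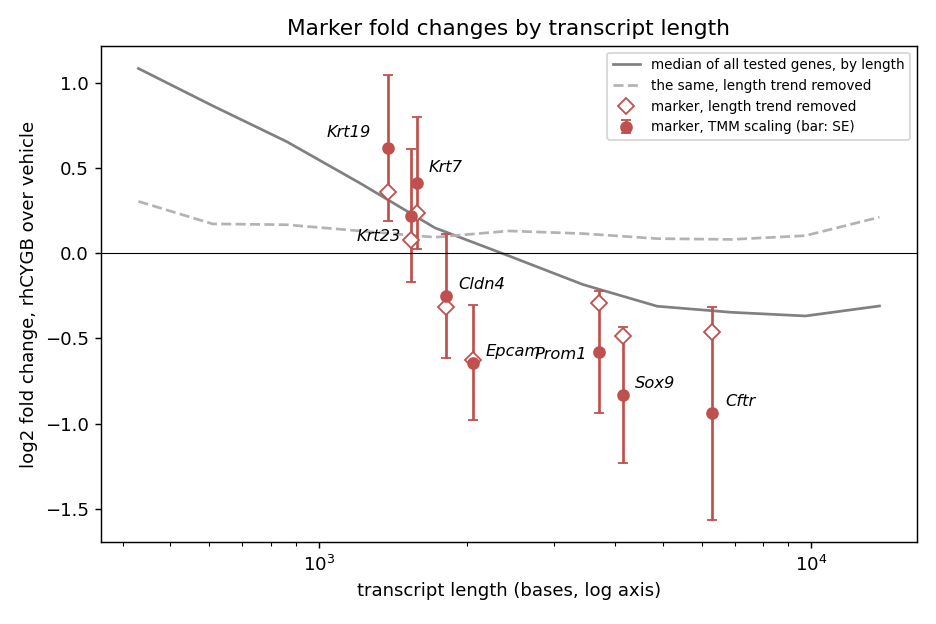
Log2 fold change (rhCYGB over vehicle) of the 8 markers against transcript length on a log axis, with TMM scaling (filled circles, bar: SE) and with the length trend of each library removed (open diamonds). The solid grey line is the median of all tested genes in length classes of at least 20 genes and the dashed line the same without the trend; the keratins, from 1381 to 1586 bases, are above 0 and the longer markers below it.

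The direction of the keratins depended on scale. On log2(TPM + 1), where libraries are not centred on the bulk of genes and the median of all genes was -0.51, Krt19 was at -0.29, Krt7 at -0.38 and Krt23 at -0.43, that is below 0 but above the median gene. Prom1 at -1.31, Epcam at -1.20, Sox9 at -1.20 and Cldn4 at -0.80 were below the median gene, and Cftr at -0.46 was close to it, or at -1.20 with 0.1 added in place of 1, where the median gene was at -0.75. TPM of the groups overlapped for all 8, where 12.7% of all genes did not overlap and were lower with rhCYGB.

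Ratios between 2 markers within a library are free of library scaling, but not of the length trend. Krt19 with 1381 bases is shorter than Epcam with 2061 and Sox9 with 4146. The change per doubling of length was lowest in rhCYGB replicates 2 and 3, at -0.35 and -0.33. The part of length in these ratios was not tested. The count of Krt19 over that of Sox9 was 1.36, 10.05 and 7.21 in rhCYGB replicates 1 to 3 and 1.27, 2.25 and 2.06 in vehicle replicates 1 to 3. For Krt19 over Epcam the values were 0.984, 3.30 and 3.85 with rhCYGB and 0.689, 1.79 and 1.21 with vehicle. In both pairs rhCYGB replicates 2 and 3 had more keratin per unit of the other marker than any vehicle liver, and replicate 1 lay inside the vehicle range. Of the 15 ratios of a keratin to another marker, 0 had groups that did not overlap, and these pairs were formed with the values known.

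Prom1 counts were assigned to different transcripts in rhCYGB replicates 2 and 3 than in the other 4 libraries. The transcript table lists 8 Prom1 variants, all on the minus strand of chromosome 5. Variant 1 (NM_008935) had 2334, 51 and 76 estimated counts in rhCYGB replicates 1 to 3 and 3719, 2883 and 3363 in vehicle replicates 1 to 3. Variant 2 (NM_001163577) had 575, 1786 and 259 with rhCYGB and was listed at 0 in all 3 vehicle libraries. Variant 8 (NM_001163585) had 10, 129 and 282 with rhCYGB and 8, 8 and 0 with vehicle. So vehicle livers were almost wholly assigned to variant 1, rhCYGB replicate 2 to variant 2, rhCYGB replicate 3 to variants 2 and 8, and rhCYGB replicate 1 mostly to variant 1.

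In the GENCODE M21 annotation (GRCm38, the assembly of mm10), variants 2 and 8 hold a coding exon of 27 bases at chr5:44058626-44058652 that variant 1 skips, and variant 8 holds another of 18 bases at chr5:44012499-44012516. The 27-base exon is printed because it sets the variants apart, in capitals between 30 bases of the spliced transcript on each side, followed by the same flanks as variant 1 joins them.
Prom1 variant 2, exon included: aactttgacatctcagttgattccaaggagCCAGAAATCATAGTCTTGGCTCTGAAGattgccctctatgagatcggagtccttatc
Prom1 variant 1, exon skipped: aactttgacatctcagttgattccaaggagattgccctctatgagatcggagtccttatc
The 27 bases are a whole number of codons. Transcripts with this exon took 18.9%, 97.4% and 87.7% of Prom1 counts in rhCYGB replicates 1 to 3, against 0.210%, 0.259% and 0% in vehicle replicates 1 to 3, where the 0 is StringTie's assignment and 3 estimated counts would have made 0.0843%. All rhCYGB livers were above all vehicle livers, with replicate 1 far below replicates 2 and 3. How many other genes have transcript shares that separate the groups in this way was not counted. Variants 3 to 6, with at most 21 counts together in a library, were left out of the count with the exon.

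By edgeR on all 19664 transcripts tested, 0 passed an adjusted p of 0.05 and 4.04% had an unadjusted p under 0.05. Variant 2 had an unadjusted p of 0.00161 and an adjusted p of 0.756, and variant 1 had a log2 fold change of -2.00 (SE 1.34, adjusted p = 0.802). Without rhCYGB replicate 1, variant 1 had a log2 fold change of -5.05 and an adjusted p of 0.0154, and variant 2 an adjusted p of 0.0667, in a fit that called 958 of 20430 transcripts. Transcript assignment also varied between libraries for many other genes. Among 3383 genes with at least 2 tested transcripts, the most abundant transcript was not the same in all 6 libraries for 53.2%, while it was one transcript in all rhCYGB and another in all vehicle libraries for 0.887%. Prom1 belongs to the first kind and not to the second, since variant 1 led in rhCYGB replicate 1 as in the vehicle livers. The deposited tables hold no counts over single exons or splice junctions.

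**Figure D3:**
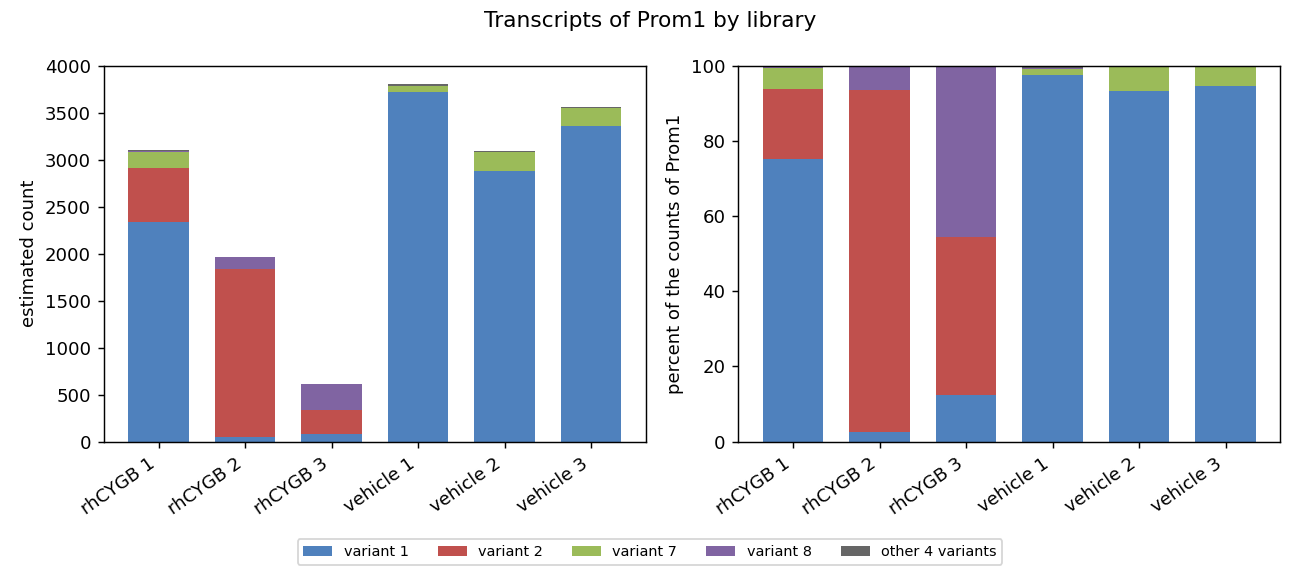
Estimated counts (left) and percent of Prom1 counts (right) assigned to each Prom1 variant in the 3 rhCYGB and 3 vehicle libraries. Variant 1, without the 27-base exon, fills most of every vehicle bar and of rhCYGB replicate 1, and variants 2 and 8, with the exon, fill 97.4% and 87.7% of the bars of rhCYGB replicates 2 and 3.

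Variants 1 and 2 begin at the distal start of Prom1 and variants 3 to 8 at a start inside the gene. Variants that begin at the downstream start were assigned 6.22%, 6.56% and 45.7% of Prom1 counts in rhCYGB replicates 1 to 3. In vehicle replicates 1 to 3 they were assigned 2.41%, 6.70% and 5.45%, so only rhCYGB replicate 3 stood apart. Variants 7 and 8 also lack coding exons of 24 bases (chr5:44001270-44001293) and 69 bases (chr5:44000777-44000845) that variants 1 and 2 hold. The shares are of whole transcripts, and the part of the start in them was not tested. Both start regions are printed from RefSeq (GRCm38.p6, minus strand, 5′ to 3′) because they are where the variants begin. They run from 250 bases before to 50 bases after the start at chr5:44101687-44101986 and chr5:44094719-44095018.
Prom1 distal start: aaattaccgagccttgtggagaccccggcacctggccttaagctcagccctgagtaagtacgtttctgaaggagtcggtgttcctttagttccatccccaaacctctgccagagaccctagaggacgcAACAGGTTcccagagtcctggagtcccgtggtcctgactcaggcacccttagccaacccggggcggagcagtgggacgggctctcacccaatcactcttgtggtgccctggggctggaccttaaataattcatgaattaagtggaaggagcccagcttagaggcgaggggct
Prom1 downstream start: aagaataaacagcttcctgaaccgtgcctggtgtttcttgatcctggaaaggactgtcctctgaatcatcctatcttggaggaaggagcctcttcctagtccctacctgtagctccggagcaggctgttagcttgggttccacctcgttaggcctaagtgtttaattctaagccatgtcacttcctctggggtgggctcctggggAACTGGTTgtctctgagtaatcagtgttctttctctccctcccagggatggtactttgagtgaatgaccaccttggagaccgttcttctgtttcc
Capitals mark the letters AACNNGTT, the core bound by grainyhead-like (GRHL) factors of epithelia. They were found once in each of these windows and in 4.2% of the 32851 RefSeq windows of this length, both strands searched. Such a match is a description of the letters only. RefSeq windows matched 6 of the 8 markers. The letters ACAAAG or ACAATG of SOX factors, found in 28.6% of all windows, occurred once each in Cldn4 and Krt23. The TEAD letters GGAATG (14.7% of all windows), the RBPJ letters GTGGGAA (6.38%) and the HNF1 motif (0.00913%) occurred in none of the members' windows, and the windows of Krt7, Epcam and Cftr held none of the 5 motifs. None of these letter sets overlapped another in a printed window.

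Other genes of the duct epithelium were mixed in direction. Of 25 listed genes, all tested, 0 passed an adjusted p of 0.05. At an unadjusted p under 0.05 there were 2 lower (Spp1 and Elf3, 2.06% of all genes in that direction) and 1 higher (Mmp7, 6.06% of all genes), and 9 of the 25 lay above 0, with a median log2 fold change of -0.13. Without the length trend 13 lay above 0 and the median was 0.065. Groups did not overlap for 3, Cd24a, Spp1 and Elf3, all lower, as for 7.38% of all genes in that direction and 13.4% in either. Without rhCYGB replicate 1, edgeR called 6 of the 25, beside 23.2% of all genes. Spp1, which encodes the secreted phosphoprotein osteopontin of duct cells and macrophages, was at 542, 299 and 113 CPM in rhCYGB replicates 1 to 3 and at 975, 892 and 897 CPM in vehicle replicates 1 to 3. It was lower in every rhCYGB liver, with a log2 fold change of -1.53 (SE 0.55, edgeR adjusted p = 0.523) that was -1.63 without the length trend. Without rhCYGB replicate 1 it was -2.16 (edgeR adjusted p = 0.0235).

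Cd24a, Elf3 and Mmp7 are named after their values were seen. Elf3, an epithelial ETS factor, was at 13.2, 5.71 and 4.60 CPM with rhCYGB and at 14.4, 26.9 and 13.76 CPM with vehicle, without overlap. The matrix protease gene Mmp7 was at 13.96, 74.9 and 199.9 CPM with rhCYGB and at 23.0, 16.6 and 24.8 CPM with vehicle, with replicate 1 below and replicates 2 and 3 above all vehicle livers, as for Krt19 and Krt7. Cldn3, a claudin found in duct cells and hepatocytes, averaged 195 ± 92.5 CPM with rhCYGB and 122 ± 46.4 CPM with vehicle. Atp1b1, a sodium pump subunit, averaged 95.9 ± 47.6 CPM with rhCYGB and 70.1 ± 7.74 CPM with vehicle, and the water channel gene Aqp1 66.6 ± 33.01 CPM with rhCYGB and 71.3 ± 15.3 CPM with vehicle.

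Krt8 and Krt18, the keratin pair that hepatocytes and duct cells share, were above the duct keratins in every library per length, with Krt8 at 1118 ± 578 TPM with rhCYGB and 2016 ± 267 TPM with vehicle. In CPM, Krt8 averaged 1454 ± 422 CPM with rhCYGB and 1690 ± 199 CPM with vehicle, and Krt18 1400 ± 399 CPM with rhCYGB and 1242 ± 333 CPM with vehicle. Their log2 fold changes of -0.22 (SE 0.37) and 0.17 (SE 0.40) were smaller than that of Krt19 and did not pass (edgeR adjusted p = 0.764 for Krt8).

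The Notch pathway, by which a ligand on portal cells instructs its neighbours to become duct, had 13 of 13 listed genes with log2 fold changes below 0 and a median of -0.89, or -0.74 without the length trend, where the medians of all genes were -0.056 and 0.11. None passed by edgeR and 0 had an unadjusted p under 0.05, but without rhCYGB replicate 1 edgeR called 7 of the 13, all lower, Hes1, Notch1 and Notch2 among them, beside 23.2% of all genes. Groups did not overlap for 2 of the 13, Jag2, a ligand named after its values were seen, and Hes1, both lower, as for 7.38% of all genes. The target gene Hes1 was at 21.3, 10.9 and 4.41 CPM in rhCYGB replicates 1 to 3 and at 27.0, 29.0 and 23.1 CPM in vehicle replicates 1 to 3. Every rhCYGB liver was below every vehicle liver, with a log2 fold change of -1.11 (SE 0.52, edgeR adjusted p = 0.523). The receptor Notch2 averaged 23.4 ± 9.63 CPM with rhCYGB and 32.5 ± 6.06 CPM with vehicle, Notch1 10.7 ± 6.14 CPM with rhCYGB and 15.5 ± 3.33 CPM with vehicle, and the Notch-bound DNA-binding factor Rbpj 7.78 ± 3.08 CPM with rhCYGB and 12.6 ± 4.01 CPM with vehicle. Without the length trend 11 of the 13 lay below 0, with Notch4 at 0.32 and Jag1 at 0.15 above it. Notch2 was then at -0.023, Notch1 at -0.15, Rbpj at -0.28 and Hes1 at -1.18. Summed CPM of the list was 44.0 to 113 with rhCYGB and 102 to 140 with vehicle. Notch genes are also expressed by endothelial cells, and the summed CPM of the 7 endothelial markers was 60.3 to 138 with rhCYGB and 95.8 to 135 with vehicle, lowest in rhCYGB replicate 3. The part of endothelial cells in these values was not tested.

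YAP and its TEAD partners act in ductular cells and in hepatocytes that turn towards duct. Of 13 measured genes 10 lay below 0, with a median of -0.35 that was 0.030 without the length trend, where 7 lay above 0, 0 passed (2 without rhCYGB replicate 1, Amotl2 and Cyr61, both lower, beside 23.2% of all genes), and 0 had an unadjusted p under 0.05. Yap1 averaged 33.3 ± 11.1 CPM with rhCYGB and 40.7 ± 8.09 CPM with vehicle, its paralogue Wwtr1 22.8 ± 2.76 CPM with rhCYGB and 21.2 ± 3.77 CPM with vehicle, and the target gene Ctgf 19.4 ± 7.21 CPM with rhCYGB and 19.2 ± 7.57 CPM with vehicle. Ajuba, a LIM protein of the same pathway, averaged 29.8 ± 1.38 CPM with rhCYGB and 25.7 ± 1.24 CPM with vehicle. It was the 1 gene of this list without overlap in the higher direction, as were 6.02% of all genes. Ankrd1 was the 1 gene without overlap in the lower direction, as were 7.38% of all genes.

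Among 8 genes of growth signals that reach ductular cells, 4 lay above and 4 below 0 and none passed. The TWEAK receptor gene Tnfrsf12a averaged 81.1 ± 36.4 CPM with rhCYGB and 66.3 ± 9.95 CPM with vehicle, Egfr 140 ± 84.7 CPM with rhCYGB and 74.0 ± 20.03 CPM with vehicle, the HGF receptor gene Met 32.6 ± 20.5 CPM with rhCYGB and 37.7 ± 6.71 CPM with vehicle, and Fgfr2 30.6 ± 13.0 CPM with rhCYGB and 38.2 ± 5.73 CPM with vehicle.

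**Figure D4:**
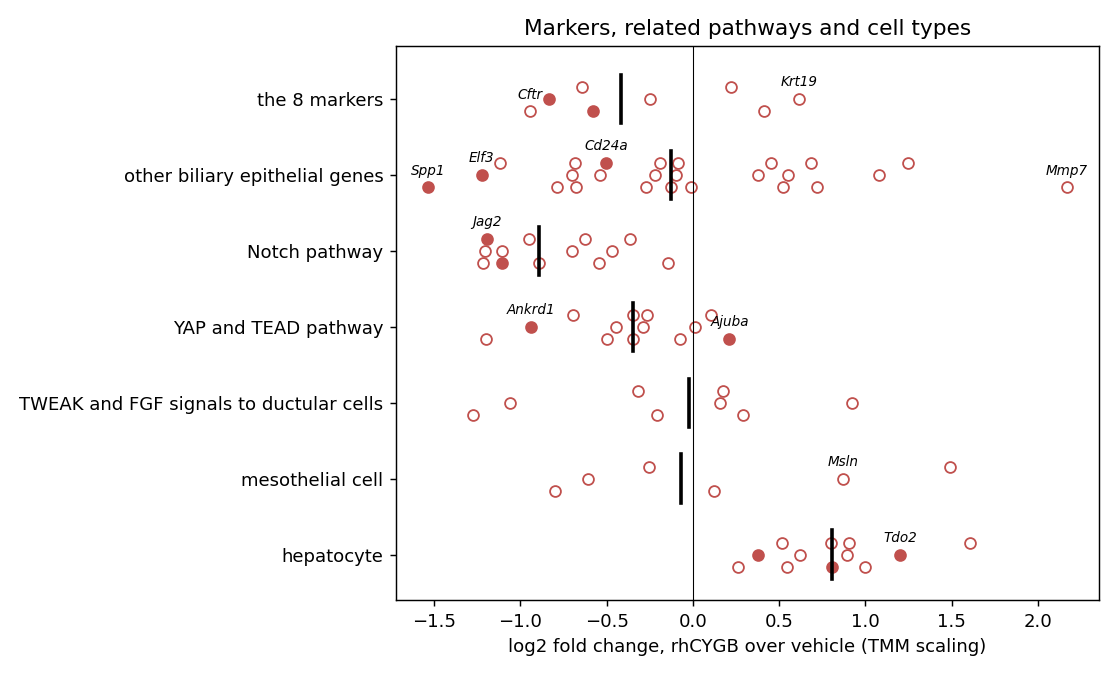
Log2 fold changes (rhCYGB over vehicle, TMM scaling) of the 8 markers, of 4 lists of related genes and of mesothelial and hepatocyte markers. Each circle is a gene, filled where CPM of the 2 groups does not overlap, and the black bar is the list median, which is -0.42 for the markers and -0.89 for the Notch list.

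Markers of other cell types that could carry or dilute the duct genes were measured in the same libraries. Krt7 and Krt19 are also keratins of mesothelium, the cell layer on the liver surface. The summed CPM of 6 mesothelial markers was 11.4, 21.4 and 25.6 in rhCYGB replicates 1 to 3 and 8.91, 12.5 and 17.8 in vehicle replicates 1 to 3, and Msln, the highest of them in CPM, was at 5.16, 14.2 and 20.3 CPM with rhCYGB and at 6.26, 6.81 and 8.65 CPM with vehicle, with replicate 1 low and replicates 2 and 3 high in the rhCYGB group as for Krt19. Within the rhCYGB group Upk1b was also lowest in replicate 1, and Upk3b was highest in replicate 2. Wt1, Gpm6a and Lrrn4 ran the other way and were highest in replicate 1. In rhCYGB replicates 1 to 3 Wt1 was at 0.899, 0.445 and 0 CPM and Gpm6a at 1.64, 0.705 and 0.0797 CPM. Lrrn4 was at 0.925, 0.278 and 0.558 CPM in the same libraries. Upk3b averaged 2.56 ± 0.981 CPM with rhCYGB and 2.36 ± 1.76 CPM with vehicle. The list had 3 genes above and 3 below 0 and a median of -0.068. Without rhCYGB replicate 1, Msln was called by edgeR (1.25, adjusted p = 0.0244), in a fit that called 23.2% of all genes. The part of mesothelial RNA in the keratin values was not tested.

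Hepatocyte markers had log2 fold changes above 0 in 12 of 12 genes, and 0 passed (2 without rhCYGB replicate 1, Apoa1 and Asgr2, beside 23.2% of all genes). Their median was 0.80, or 0.95 without the length trend, where the medians of all genes were -0.056 and 0.11. On log2(TPM + 1) their median was -0.011, where that of all genes was -0.51. Their summed CPM was 93382, 191495 and 198784 in rhCYGB replicates 1 to 3 and 61624, 102600 and 90463 in vehicle replicates 1 to 3. Alb averaged 117969 ± 39949 CPM with rhCYGB and 63542 ± 15808 CPM with vehicle, and Apoa1 20639 ± 12768 CPM with rhCYGB and 6788 ± 3247 CPM with vehicle. Stellate cell and portal fibroblast markers, whose cells lie around the ductules, lay below 0 in 8 of 10 genes. Their median was -0.54, or -0.34 without the length trend. Their summed CPM was 179 to 483 with rhCYGB and 583 to 706 with vehicle, without overlap. For single genes the groups did not overlap for 3 of the 10, all lower, as for 7.38% of all genes. Dcn averaged 139 ± 77.0 CPM with rhCYGB and 249 ± 68.6 CPM with vehicle (edgeR adjusted p = 0.523, or 0.0434 without rhCYGB replicate 1), and Col1a2 74.7 ± 40.0 CPM with rhCYGB and 141 ± 19.2 CPM with vehicle.

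Pancreas, gallbladder and gut were checked as sources of other epithelium. Of 8 pancreatic acinar genes 4, Cpa1, Pnlip, Amy2a5 and Cpb1, were at 0 in all libraries, and no untested one had more than 5 estimated counts. Cela1 averaged 8.96 ± 3.07 CPM with rhCYGB and 7.41 ± 2.60 CPM with vehicle, and Cela2a 0.528 ± 0.289 CPM with rhCYGB and 0.375 ± 0.280 CPM with vehicle. Among gallbladder and gut genes the gut factor Cdx2 and the stomach gene Gkn3 were at 0 in all libraries, and of the other 6 genes 4 lay above and 2 below 0, with a median of 0.59. Cdh17, an intestinal cadherin named after its values were seen, was at 0.977, 0.260 and 0.0797 CPM with rhCYGB and at 2.64, 1.62 and 1.70 CPM with vehicle, lower without overlap (log2 fold change -2.13, edgeR adjusted p = 0.523, or 0.0213 without rhCYGB replicate 1), and Vil1 was at -0.17. Fabp2 averaged 77.3 ± 44.2 CPM with rhCYGB and 36.7 ± 19.0 CPM with vehicle, and Lgals4 22.1 ± 14.7 CPM with rhCYGB and 5.04 ± 1.75 CPM with vehicle (log2 fold change 2.13, SE 0.65, edgeR adjusted p = 0.523, or 0.0212 without rhCYGB replicate 1). The fit without rhCYGB replicate 1 called 23.2% of all genes. The part of such epithelium in the marker values was not tested. Endothelial and leukocyte markers had medians of -0.29 and -0.17, or -0.030 and -0.36 without the length trend. Below 0 lay 5 of 7 endothelial and 6 of 8 leukocyte genes, and 0 passed. Without rhCYGB replicate 1, edgeR called 2 genes of each list. Itgam, named after its values were seen, had a log2 fold change of -1.74 (edgeR unadjusted p = 0.0476, adjusted p = 0.523). It was the 1 gene of the 2 lists without overlap, lower as were 7.38% of all genes. Clec4g averaged 35.3 ± 13.6 CPM with rhCYGB and 29.9 ± 4.94 CPM with vehicle, Stab2 23.9 ± 5.44 CPM with rhCYGB and 29.2 ± 6.12 CPM with vehicle, Csf1r 149 ± 29.2 CPM with rhCYGB and 162 ± 31.5 CPM with vehicle, and Clec4f 144 ± 48.7 CPM with rhCYGB and 135 ± 2.94 CPM with vehicle.

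The 8 markers did not share a single profile over the 6 libraries. Their mean profile of centred log2 CPM was -0.19, -0.069 and -0.15 in rhCYGB replicates 1 to 3 and 0.49, -0.043 and -0.036 in vehicle replicates 1 to 3, so it mainly set vehicle replicate 1 apart. Root mean square differences of single markers from it were smallest for Cldn4 (0.22) and Epcam (0.26) and largest for Cftr (0.65) and Krt19 (0.67). Among 11925 other genes with a mean of at least 1 CPM, the 5 closest to the mean profile over the 6 libraries were Brip1os (0.059), Pot1b (0.063), Nup85 (0.086), Shisa4 (0.086) and Lrrc59 (0.087). Their log2 fold changes ran from -0.40 for Shisa4 to -0.21 for Nup85.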

How the data were processed

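The tables as the authors deposited them were used, 1 of genes and 1 of transcripts, each with estimated counts and FPKM for every library. The submitters' processing notes name FastQC (version 0.11.7), HISAT2 (2.1.0), StringTie (1.3.4d) and the build mm10. For the strand setting of the counting and the release of the annotation, "not given in the sources used here" applies, and reads of antisense or overlapping genes may be mixed. Per the labels, a stranded poly(A) kit was used. The deposited counts are expected (estimated) counts: for transcripts with at least 50 of them they equalled FPKM times length times 1 constant per library within 2%. TPM is the deposited FPKM divided by its library's sum. Counting error is therefore not that of reads, and the spread between 3 mice per group sets the precision.

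The test was edgeR 4.0.16 in R 4.3.3: whole-number counts as deposited, filterByExpr by group, TMM, robust glmQLFit and glmQLFTest, Benjamini-Hochberg over 14415 genes or 19664 transcripts, threshold 0.05. Each SE was derived from the log2 fold change and its F statistic. Length is that of a gene's most abundant transcript, and its trend was a loess of span 0.5 per library, entered as an offset. Alternatives were DESeq2 1.42.0 (size factors or test), upper-quartile factors, other filters, removal of the length trend, each library left out, and limma 3.58.1, either as voom with weights for sample quality or on log2 values of TPM plus 1 or plus 0.1. The members, lists and tests were chosen with earlier results of these data known. Named are the markers, up to 4 genes of highest mean CPM per pathway list, 2 per cell type list, and the 5 genes most like the markers' mean profile. Genes named beyond this rule (Elf3, Mmp7, Cd24a, Jag2, Ankrd1, Amotl2, Cyr61, Asgr2, Notch4, Jag1, Cdh17, Vil1, Upk1b, Wt1, Gpm6a, Lrrn4 and Itgam) were chosen after their values were seen. Muc16, Ccn1 and Ccn2 were listed but not analysed here (Ccn1 and Ccn2 are newer symbols of Cyr61 and Ctgf). Plots were drawn with matplotlib 3.10.9.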

Additional observations from a re-analysis of the deposited data

How the results depend on the processing

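By edgeR 0 genes and 0 markers passed, with 1170 genes at an unadjusted p under 0.05. The DESeq2 test called 56 genes but gave none of the 8 markers an adjusted p, so it could not call a marker. Its unadjusted p was under 0.05 for 0 markers and 13.3% of all genes. By limma-voom with sample quality weights 4323 genes and 3 markers passed (Krt19 at 0.84, Krt7 at 0.73 and Sox9 at -1.22). There 4 markers and 46% of all genes had an unadjusted p under 0.05. Leaving out each library in turn gave 0 to 3391 genes, 0 to 2 markers past the threshold, 0 to 4 markers at an unadjusted p under 0.05, 0 to 958 transcripts and a marker median between -0.54 and -0.035. Every count of genes, transcripts and passing markers above 0 came without rhCYGB replicate 1. Without vehicle replicate 2 Epcam alone of the 8 markers had an unadjusted edgeR p under 0.05, as had 3.52% of all genes. On log2(TPM + 1) and log2(TPM + 0.1) 1 and 15 transcripts passed, and the marker median was -0.63 and -1.06. Signs turned on these 2 scales for Krt19 (-0.29 and -0.30), Krt7 (-0.38 and -0.40) and Krt23 (-0.43 and -0.51), and without vehicle replicate 1 for Cldn4 (0.15, against -0.45 without vehicle replicate 2, the range over libraries left out); the cause was not tested. Epcam, Sox9, Cftr and Prom1 kept their sign in all 15 alternatives. No paired analysis was possible because the replicate numbers follow the order of deposition and pair no animals. With 3 mice per group the 95% intervals of the 8 log2 fold changes all hold 0.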
